A study of Mus musculus with 9 samples.

Results

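The histone genes of mouse heart tissue were followed over 9 Clariom S arrays, which read most genes through a single summarised probe set. Members were chosen by symbol: every row whose annotated name is that of an H1, H2A, H2A.Z, H2B, H3 or H4 histone gene in the current or the older nomenclature, with the H2 genes of the major histocompatibility complex left out. This gave 61 of the 19505 genes measured. The brightest row was to be kept where a gene had several, but 0 of the 61 had more than 1 row, so signal decided nothing in the choice, although the set was taken up with results of these arrays known. By symbol, 51 members are replication-dependent (4 H1, 12 H2A, 14 H2B, 10 H3 and 11 H4 genes), 5 are replacement histones (H1f10, H2az1, H2az2, H3f3a and H3f3b) and 5 are germline histones (H1f6, H1f7, H1f8, H2ac1 and H2bc1).

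The hearts came from female SCID mice aged 80 to 100 days, a strain without functional T or B lymphocytes. All animals had an infarct from ligation of the left anterior descending (LAD) artery of the heart, and the tissue at the border of the infarct was dissected under a microscope 4 weeks later. The groups had received saline, contracting cardiomyocytes grown from induced pluripotent stem cells (the iCM group) or exosomes, small secreted vesicles, that had been precipitated from those cells (the iCM-Ex group). Each group has 3 biological replicates by its labels, with 1 array each. The mean log2 signal of 10 cardiomyocyte genes, the defining markers of the labelled tissue, was 15.19 to 16.71 over the 9 arrays. In dissected tissue, fewer cells of a type and less RNA per cell cannot be told apart.

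Histones package DNA. Pairs of H2A, H2B, H3 and H4 form the core of the nucleosome, and H1 binds the linker DNA between nucleosomes. Replication-dependent genes lie in dense clusters, have no introns and are transcribed mainly in S phase, and their mRNAs end in a stem-loop in place of a poly(A) tail. Replacement histones are made throughout the cell cycle from ordinary polyadenylated mRNAs and are the main supply in cells that no longer divide, such as adult cardiomyocytes. Whether the cDNA was primed at poly(A) tails or along the whole RNA is not given in the sources used here, and this bears on any comparison between the classes.

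The promoters of the classes were described by sequence, and those of 5 genes are printed because the results below turn on them. H2ac6, H3f3a and H4c1 passed a test, and H3f3b encodes the same protein as H3f3a. H2ac20 had the lowest of the 61 differences between iCM and saline. Each is the stretch just upstream of the gene's start in RefSeq (GRCm38.p6), 5′ to 3′ on the gene's strand. Capitals mark 3 motifs, searched on both strands. The TATA box was spelled TATAAA and the octamer ATGCAAAT. The CCAAT box was spelled by its name, and on the opposite strand it appears as ATTGG. H2ac6 is at chr13:23683960-23684198, minus strand, where its 239 bases are the whole gap to the oppositely transcribed H2bc4. H4c1 is at chr13:23761250-23761499, H3f3a at chr1:180813606-180813855, H3f3b at chr11:116024505-116024754 and H2ac20 at chr3:96220881-96221071, all on the minus strand, the last being the 191 bases up to H2bc21.
H2ac6: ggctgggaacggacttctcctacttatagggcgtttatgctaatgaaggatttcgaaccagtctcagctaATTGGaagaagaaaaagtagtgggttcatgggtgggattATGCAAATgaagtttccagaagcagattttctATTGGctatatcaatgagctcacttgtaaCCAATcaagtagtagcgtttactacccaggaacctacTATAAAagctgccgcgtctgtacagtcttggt
H4c1: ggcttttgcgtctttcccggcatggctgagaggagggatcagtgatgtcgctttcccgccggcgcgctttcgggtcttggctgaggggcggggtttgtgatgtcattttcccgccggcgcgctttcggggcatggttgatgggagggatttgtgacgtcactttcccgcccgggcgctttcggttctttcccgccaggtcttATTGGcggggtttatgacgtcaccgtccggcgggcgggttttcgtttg
H3f3a: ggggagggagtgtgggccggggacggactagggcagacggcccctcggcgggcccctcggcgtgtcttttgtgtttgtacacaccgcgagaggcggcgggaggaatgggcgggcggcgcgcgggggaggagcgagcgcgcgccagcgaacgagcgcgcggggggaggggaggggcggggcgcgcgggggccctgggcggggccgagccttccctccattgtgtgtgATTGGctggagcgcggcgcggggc
H3f3b: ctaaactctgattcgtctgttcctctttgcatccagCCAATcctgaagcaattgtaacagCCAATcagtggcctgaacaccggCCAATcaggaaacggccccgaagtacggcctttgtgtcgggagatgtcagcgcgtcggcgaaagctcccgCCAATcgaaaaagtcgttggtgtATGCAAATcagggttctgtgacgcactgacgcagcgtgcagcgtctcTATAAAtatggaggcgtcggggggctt
H2ac20: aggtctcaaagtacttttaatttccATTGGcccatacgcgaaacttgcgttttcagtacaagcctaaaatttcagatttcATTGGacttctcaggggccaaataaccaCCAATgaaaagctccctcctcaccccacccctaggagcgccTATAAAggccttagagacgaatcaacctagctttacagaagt

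The window of H2ac6 held 1 TATA box, 3 CCAAT boxes and 1 octamer, and that of H2ac20 held 1 TATA box and 3 CCAAT boxes. The H3f3a window held 1 CCAAT box and was 77.2% G and C, whereas that of H3f3b held 1 TATA box, 4 CCAAT boxes and 1 octamer at 54.0% G and C. Of the 61 members, 56 had a promoter in the table. The counts over all members use the full 250 bases before the start, which for close neighbours run past the neighbour's start and overlap its own window. For H2ac20 this longer window also holds an octamer. In these windows a TATA box was present in 22 of 46 replication-dependent genes (47.8%), against 12.4% of all 32851 promoters in the table. A CCAAT box was present in 37 of 46 (80.4%), against 33.8% of all promoters. The octamer was present in 10 of 46 (21.7%), against 1.6%, and these were 5 of 12 H2A and 5 of 12 H2B genes and 0 of the H1, H3 and H4 genes. In the 5 replacement genes the TATA box, CCAAT box and octamer were present in 1, 4 and 1. In the 5 germline genes they were present in 2, 4 and 2. With 5 replacement genes, of which only H3f3b held the octamer, these frequencies cannot be compared closely between the classes. None of the 3 motifs contains another, and a match is a description of the window only. The median G and C content was 44.6% in replication-dependent, 71.2% in replacement and 52.4% in all promoters.

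Mean signals were higher in iCM-Ex than in saline for 58 of the 61 histone genes, where 53.5% of all genes were higher, and higher in iCM than in saline for 40, where 55.5% were. The replication-dependent H2A gene H2ac6 rose in both treated groups, and the replacement H3 gene H3f3a rose in iCM. No other member passed the threshold in a pairwise contrast. Of the 61 genes, 2 were called higher in iCM than in saline by limma (adjusted p below 0.05 over all genes), where 1.34% of all genes were called, and 0 were called lower, where 2.33% were, with 2 lower at an unadjusted p below 0.05 (9.97% of all genes). In iCM-Ex minus saline 1 was called higher (0.220% of all genes) and 0 lower (0.128%), with 38 higher (8.33% of all genes) and 0 lower at an unadjusted p below 0.05. In iCM-Ex minus iCM 0 were called higher (0.795% of all genes) and 0 lower (0.272%), with 27 higher (8.39% of all genes) and 0 lower at an unadjusted p below 0.05. Over the 3 groups at once, the limma F test called 3 members, H2ac6 (adjusted p = 0.00827), H3f3a (adjusted p = 0.0373) and H4c1 (adjusted p = 0.0445), where it called 3.32% of all genes. Both comparisons with saline use the same saline arrays.

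H2ac6 encodes one of the canonical H2A proteins of the core nucleosome. Its log2 signals were 4.70, 5.15 and 5.61 in saline, 7.78, 8.49 and 8.31 in iCM and 7.72, 7.39 and 8.12 in iCM-Ex. All 6 treated arrays lay above all 3 saline arrays, and the treated groups overlapped each other. It rose by 3.04 ± 0.34 in iCM (log2 difference, SE; limma adjusted p = 0.00397) and by 2.59 ± 0.34 in iCM-Ex (adjusted p = 0.0291), and iCM-Ex differed from iCM by −0.45 ± 0.34 (adjusted p = 0.621). The saline mean of 5.15 lay below the mean of the median negative control signals, 5.29, so the size of the rise is uncertain. The call in iCM held in 9 of 9 fits that left out 1 array, with a highest adjusted p of 0.0256. The call in iCM-Ex held in 4 of 9 and was lost without saline replicate 1 (adjusted p = 0.0825), saline replicate 2 (0.156), iCM replicate 3 (0.0516), iCM-Ex replicate 2 (0.0832) or iCM-Ex replicate 3 (0.173). Of all genes, 1 was called in this comparison without saline replicate 1 and 0 in each of the other fits that lost it. These losses were therefore not particular to H2ac6. With control separation as a covariate both calls were lost (limma adjusted p = 0.065 in iCM and 0.0666 in iCM-Ex). The iCM-Ex call was also lost in a fit of saline and iCM-Ex alone (0.076). Of all genes, 33 in iCM and 5 in iCM-Ex were called with the covariate, and 1 in the fit of those 2 groups. Without the 3 arrays that carried lung, fast muscle or fat markers, which leaves 1 iCM and 2 iCM-Ex arrays and takes the spread of iCM from the other groups, the adjusted p was 0.0844 in iCM and 0.361 in iCM-Ex.

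The H2B gene H2bc4 starts on the other side of the same 239 bases and did not follow H2ac6 in iCM. Its signals were 10.89, 11.47 and 11.40 in saline, 11.07, 9.47 and 11.41 in iCM and 12.05, 12.90 and 13.98 in iCM-Ex. Saline and iCM overlapped, and all iCM-Ex arrays lay above both. The differences were −0.60 ± 0.57 for iCM minus saline (limma adjusted p = 0.599), 1.73 ± 0.57 for iCM-Ex minus saline (0.196) and 2.33 ± 0.57 for iCM-Ex minus iCM (0.0869). Among the members, 9 H2A and H2B neighbours are separated by 163 to 280 bases, 8 on chromosome 13 and 1 on chromosome 3, in the order of RefSeq genes. The H2B difference between iCM and saline was above that of its H2A neighbour in 8 of the 9 pairs, H2ac6 with H2bc4 being the exception. It was above in 3 pairs for iCM-Ex minus saline and in 1, again H2ac6 with H2bc4, for iCM-Ex minus iCM. H2ac20 and H2bc21, for example, differed by −1.79 and −0.11 between iCM and saline and by 2.18 and −0.11 between iCM-Ex and iCM. These pair counts were made after the values were seen, and no difference between neighbours was tested.

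**Figure D1:**
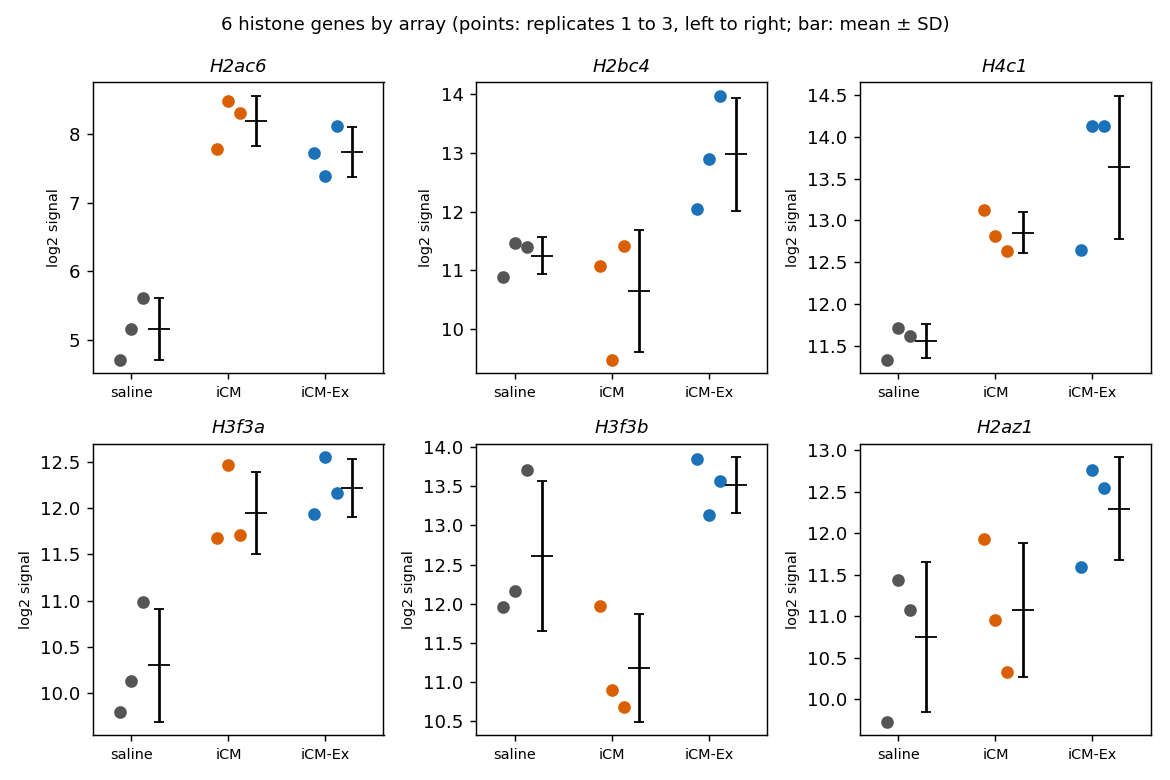
Log2 signal (vertical axes, each with its own range) of 6 histone genes on the 9 arrays; points are replicates 1 to 3 of saline, iCM and iCM-Ex from left to right, and bars give the mean ± SD (n = 3). The iCM and iCM-Ex points of H2ac6 and H3f3a lie above all saline points, H3f3b is lowest in iCM, and H2bc4 is highest in iCM-Ex.

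The replication-dependent class was described as a whole by counts and medians, without a test. Between iCM-Ex and saline, 49 of the 51 genes were higher, with a median log2 difference of 1.41 and a range of −0.22 to 2.59, against a median of 0.04 over all genes. The groups did not overlap, with iCM-Ex higher, for 21 of the 51 (41.2%), against 12.2% of all genes. At an unadjusted p below 0.05, 32 (62.7%) were higher, against 8.33% of all genes. Between iCM-Ex and iCM, 48 of 51 were higher with a median of 1.04, against −0.04 over all genes. That median was 0.31 with control separation, a measure of array quality that was higher on every iCM-Ex array than on every iCM array, as a covariate. Of these genes 10 (19.6%) did not overlap, against 10.2% of all genes, and 24 (47.1%) were higher at an unadjusted p below 0.05, against 8.39%. Between iCM and saline, 33 of 51 were higher with a median of 0.37, against 0.08 over all genes. Of these 13 (25.5%) did not overlap, against 13.8% of all genes, and 5 did not overlap in the lower direction, where 10.2% of all genes did so. At an unadjusted p below 0.05, 6 (11.8%) were higher between iCM and saline and 1 (1.96%) was lower, against 10.5% and 9.97% of all genes, so these counts are close to or below the share in all genes. The 51 genes were read on the same 9 arrays, so their counts are not counts of independent observations.

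**Figure D2:**
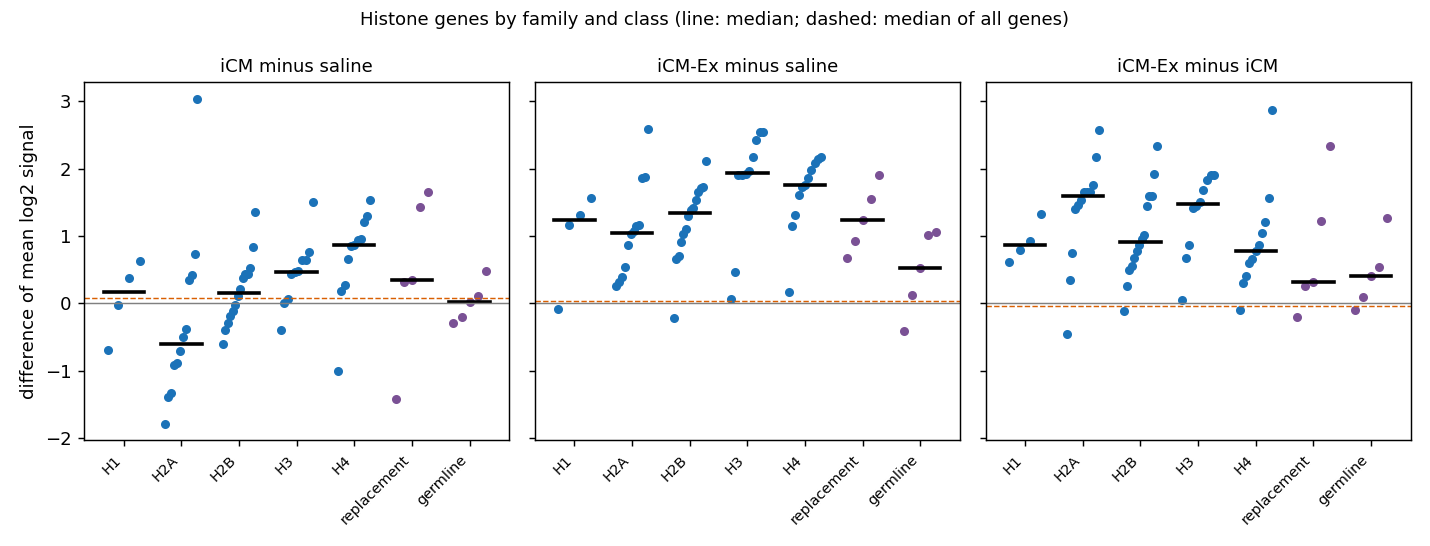
Difference of mean log2 signal (vertical axis) for each histone gene (point) by family of the replication-dependent class and for the replacement and germline classes, in the 3 comparisons; black lines are medians of the genes and the dashed line is the median of all genes. In iCM minus saline the H2A median is −0.61 and the H4 median 0.86, and in iCM-Ex minus saline the family medians are 1.05 to 1.94.

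The H2A genes had lower values in iCM than in saline for 8 of 12 members, with a median of −0.61, and higher values in iCM-Ex than in saline for 12 of 12, with a median of 1.05. H2ac20 had signals of 11.17, 12.17 and 13.10 in saline, 11.13, 9.64 and 10.28 in iCM and 11.11, 12.88 and 13.61 in iCM-Ex. Every iCM array lay below every saline array and iCM-Ex spanned both. Its difference between iCM and saline was −1.79 ± 0.68 (limma adjusted p = 0.167). H2ac24 had 10.10, 10.59 and 11.25 in saline, 9.91, 9.02 and 8.85 in iCM and 9.03, 11.87 and 11.83 in iCM-Ex, and its difference between iCM and saline was −1.39 ± 0.70 (adjusted p = 0.293). H2ac11 had 10.69, 11.28 and 11.67 in saline, 10.51, 9.60 and 9.54 in iCM and 9.86, 12.52 and 12.22 in iCM-Ex, with a difference of −1.33 ± 0.63 (0.268). In these 3 genes the iCM arrays lay below saline without overlap and iCM-Ex replicate 1 stood among the iCM arrays. H2ac4 and H2ac12 were also lower in iCM than in saline without overlap. These made 5 of the 51 replication-dependent genes, near the 10.2% of all genes that did so, and limma called 0 of them.

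H2ac15 and H2ac22 encode further canonical H2A proteins. H2ac15 had signals of 6.57, 7.97 and 8.36 in saline, 8.90, 6.36 and 5.50 in iCM and 7.29, 10.25 and 10.95 in iCM-Ex, with a difference of 2.58 ± 1.03 between iCM-Ex and iCM (limma adjusted p = 0.279). H2ac22 had 11.21, 12.24 and 13.40 in saline, 12.47, 11.85 and 11.02 in iCM and 11.74, 14.39 and 14.16 in iCM-Ex. In both genes iCM-Ex replicates 2 and 3 were the highest arrays and the groups overlapped. The other 6 H2A genes, H2ac4, H2ac8, H2ac10, H2ac12, H2ac13 and H2ac21, had differences of 0.54 to 1.88 between iCM-Ex and saline. The saline and iCM means of H2ac21 lay below the negative control means, so the size of its difference is uncertain.

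The H2B genes lay on both sides of saline in iCM, with 8 of 14 higher and a median of 0.16, and 13 of 14 were higher in iCM-Ex than in saline, with a median of 1.34. H2bc18 had signals of 6.76, 7.81 and 7.79 in saline, 8.10, 9.60 and 8.70 in iCM and 8.15, 10.19 and 10.35 in iCM-Ex. All treated arrays lay above saline, with differences of 1.35 ± 0.61 in iCM (limma adjusted p = 0.245) and 2.11 ± 0.61 in iCM-Ex (0.147). H2bc21 was the exception in the family, at 6.06, 4.96 and 5.92 in saline, 5.06, 5.50 and 6.04 in iCM and 5.45, 5.42 and 5.40 in iCM-Ex. Its groups overlapped, and its difference between iCM-Ex and saline was −0.22 ± 0.36. The other 11 H2B genes beside H2bc4 had differences of 0.66 to 1.71 between iCM-Ex and saline.

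The H3 genes were higher in iCM-Ex than in saline for 10 of 10 members, with a median of 1.94, and higher in iCM for 9 of 10, with a median of 0.47. H3c14 and H3c15 had identical values on every array and cannot be told apart, at 7.36, 8.13 and 8.86 in saline, 9.10, 8.83 and 8.33 in iCM and 9.02, 10.97 and 11.99 in iCM-Ex. The iCM-Ex arrays lay above saline, and the difference was 2.54 ± 0.66 (limma adjusted p = 0.119). H3c3 had 5.41, 7.11 and 7.17 in saline, 7.93, 8.02 and 8.26 in iCM and 8.26, 8.47 and 9.47 in iCM-Ex, with differences of 1.51 ± 0.49 (0.116) and 2.18 ± 0.49 (0.0913) from saline. Saline lay below iCM, and iCM at or below the lowest iCM-Ex array. H3c13 had 6.62, 7.61 and 9.54 in saline, 9.03, 8.84 and 8.18 in iCM and 8.85, 10.67 and 11.56 in iCM-Ex, with overlapping groups and a difference of 2.43 ± 0.78 between iCM-Ex and saline (0.186). H3c1 lay below the negative control mean in every group and differed by 0.01 to 0.06. Among the other H3 genes, H3c6, H3c7, H3c10 and H3c11 had differences of 1.90 to 1.96 between iCM-Ex and saline and H3c8 of 0.47. The saline and iCM means of H3c7 lay below the negative control means, so the size of its difference is uncertain.

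The H4 genes were higher in iCM than in saline in 10 of 11 members, with a median of 0.86, and 6 of the 11 did not overlap (H4c1, H4c3, H4c6, H4c8, H4c9 and H4c12), where 13.8% of all genes did not. In iCM-Ex 11 of 11 were above saline, with a median of 1.76. H4c1 had signals of 11.33, 11.72 and 11.62 in saline, 13.12, 12.81 and 12.63 in iCM and 12.65, 14.13 and 14.13 in iCM-Ex. All treated arrays lay above saline, and iCM-Ex replicate 1 stood among the iCM arrays. Its differences were 1.29 ± 0.40 in iCM (limma adjusted p = 0.101) and 2.08 ± 0.40 in iCM-Ex (0.0675), and it passed only the F test. H4c6 had 6.78, 8.16 and 8.27 in saline, 9.94, 9.34 and 8.55 in iCM and 8.42, 10.33 and 10.87 in iCM-Ex, also without overlap of treated and saline arrays, with differences of 1.54 ± 0.65 (0.212) and 2.14 ± 0.65 (0.163).

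H4c11 and H4c4 differed in how the iCM arrays stood. H4c11 had 10.99, 11.48 and 11.72 in saline, 12.20, 12.30 and 11.66 in iCM and 12.68, 12.47 and 12.98 in iCM-Ex, with iCM-Ex above both other groups and a difference of 1.31 ± 0.30 from saline (limma adjusted p = 0.0966). H4c4 had 9.41, 10.14 and 11.71 in saline, 10.52, 8.26 and 9.46 in iCM and 10.46, 12.79 and 13.61 in iCM-Ex. Its groups overlapped, and its difference of 2.87 ± 0.86 between iCM-Ex and iCM (0.146) was the largest of the 61. H4c2 had differences of 0.27 in iCM and 0.17 in iCM-Ex. The other 6 H4 genes had differences of 1.15 to 2.17 between iCM-Ex and saline.

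The linker genes H1f1, H1f3 and H1f5 were higher in iCM-Ex than in saline without overlap, by 1.31, 1.56 and 1.16, whereas H1f2 differed by −0.08. H1f1 had signals of 5.44, 5.76 and 5.69 in saline, 6.16, 5.30 and 5.36 in iCM and 6.57, 6.74 and 7.50 in iCM-Ex, with iCM overlapping saline and a difference of 1.31 ± 0.34 (limma adjusted p = 0.12). H1f2 had 7.89, 8.58 and 8.76 in saline, 7.56, 6.97 and 8.59 in iCM and 7.76, 8.80 and 8.42 in iCM-Ex, with all groups overlapping. H1f3 and H1f5 had saline means below the negative control mean, so the sizes of their differences are uncertain.

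**Figure D3:**
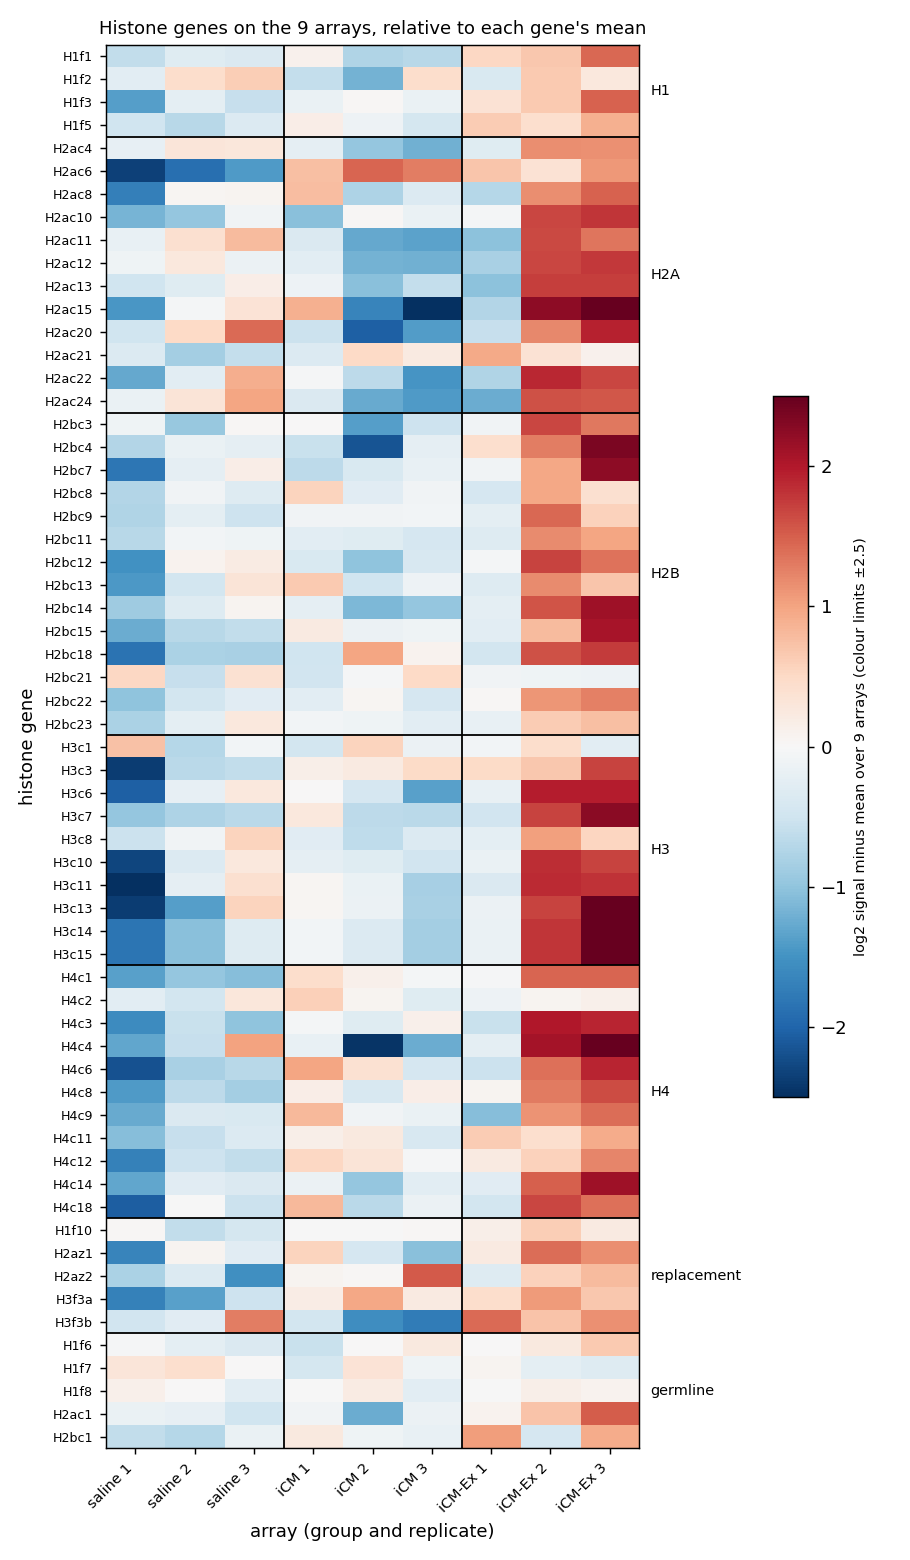
Log2 signal of each of the 61 histone genes (rows, by family and class) on each array (columns), shown as the difference from that gene's mean over the 9 arrays, with colours limited at ±2.5. Most replication-dependent rows are red in iCM-Ex replicates 2 and 3 and blue in saline replicate 1, and iCM-Ex replicate 1 is paler than the other arrays of its group.

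Arrays of a group were not alike in the replication-dependent class. The mean log2 signal of the 51 genes was 7.17, 7.88 and 8.21 in saline, 8.29, 7.83 and 7.84 in iCM and 8.08, 9.53 and 9.76 in iCM-Ex. So iCM-Ex replicates 2 and 3 stood above all other arrays and iCM-Ex replicate 1 lay within the range of the saline and iCM arrays. The highest array was iCM-Ex replicate 3 for 30 genes and iCM-Ex replicate 2 for 16, and the lowest was saline replicate 1 for 31 genes. Within its group iCM-Ex replicate 1 was below both others for 45 of 51 genes (88.2%, against 36.5% of all genes), with a median difference of −1.69 from their mean. Saline replicate 1 was below both others for 44 genes (86.3%, against 47.8% of all genes), with a median of −0.79, where all genes had −0.16.

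These arrays moved the counts. The array iCM-Ex replicate 1 stood apart in these same genes, so calls gained by leaving it out follow from that choice and are a description only. Without it, limma called 7 replication-dependent genes higher in iCM-Ex than in saline (0.292% of all genes were called). They were H2ac6, H3c7, H3c14, H3c15, H4c1, H4c3 and H4c8, and the class median was 1.94. Against iCM it called 15 (1.74% of all genes), which were 7 H2A genes (H2ac4, H2ac10 to H2ac13, H2ac20 and H2ac24), 2 H2B genes (H2bc4 and H2bc14), 3 H3 genes (H3c7, H3c14 and H3c15) and 3 H4 genes (H4c3, H4c4 and H4c14), with a class median of 1.52. In that fit 0 of the 5 replacement histones were called. Without iCM-Ex replicate 2, and without replicate 3, limma called 0 histone genes in both comparisons. Of all genes it called 0 there as well, apart from 1 between iCM-Ex and iCM without replicate 3. These counts therefore say nothing particular to histone genes. Without saline replicate 1, the class median between iCM and saline went from 0.37 to 0.09. That fit called 1 histone gene between iCM and saline (538 of all genes) and 0 between iCM-Ex and saline (1 of all genes).

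The replacement histones supply chromatin outside S phase. Their mean signal was 8.54, 8.95 and 9.16 in saline, 9.53, 9.26 and 9.26 in iCM and 9.84, 10.32 and 10.26 in iCM-Ex, and the groups did not overlap. Between iCM and saline 4 of 5 were higher with a median of 0.35, and between iCM-Ex and saline 5 of 5 with a median of 1.24. Between iCM-Ex and iCM 4 of 5 were higher, with a median of 0.31.

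H3f3a and H3f3b encode the same H3 variant from separate genes, and their values differed in iCM hearts. H3f3a had signals of 9.80, 10.13 and 10.98 in saline, 11.68, 12.46 and 11.71 in iCM and 11.93, 12.55 and 12.16 in iCM-Ex, so all treated arrays lay above saline. It rose by 1.65 ± 0.37 in iCM (limma adjusted p = 0.0405), and its difference in iCM-Ex was 1.91 ± 0.37 (0.0684). H3f3b had 11.95, 12.16 and 13.71 in saline, 11.97, 10.89 and 10.68 in iCM and 13.85, 13.14 and 13.57 in iCM-Ex. All iCM-Ex arrays lay above all iCM arrays, saline overlapped both, and the differences were −1.42 ± 0.50 for iCM minus saline (0.141), 0.92 ± 0.50 for iCM-Ex minus saline (0.424) and 2.34 ± 0.50 for iCM-Ex minus iCM (0.0601). A difference between the 2 genes was not tested. The call of H3f3a held in 2 of 9 fits that left out 1 array, without saline replicate 3 (0.0286) and without iCM-Ex replicate 1 (0.0494), and the highest adjusted p was 0.131, without saline replicate 2. In the other 7 the limma adjusted p was at least 0.0507. The call was also lost with the variance trend (0.0691), the covariate (0.285), the replicate block (0.0626) and the fit of those 2 groups alone (0.0887).

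H2az1 and H2az2 encode H2A.Z, a variant placed around the start sites of genes, and H1f10 encodes a linker histone. H2az1 had signals of 9.73, 11.44 and 11.08 in saline, 11.93, 10.95 and 10.33 in iCM and 11.59, 12.76 and 12.54 in iCM-Ex. Its iCM-Ex arrays lay above saline, with a difference of 1.55 ± 0.54 (limma adjusted p = 0.217), and iCM overlapped both groups. H2az2 had 6.42, 6.88 and 5.69 in saline, 7.29, 7.24 and 8.75 in iCM and 6.90, 7.79 and 8.02 in iCM-Ex, with both treated groups above saline and differences of 1.43 ± 0.49 (0.13) and 1.24 ± 0.49 (0.266). H1f10 had 4.80, 4.16 and 4.34 in saline, 4.77, 4.77 and 4.81 in iCM and between 4.92 and 5.38 in iCM-Ex, above all arrays of both other groups. Its saline and iCM means lay below the negative control mean, so the difference of 0.67 ± 0.27 between iCM-Ex and saline has an uncertain size.

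The germline histones, made in developing sperm or in the egg, were near background apart from H2ac1. H2ac1, the gene of a testis H2A, had signals of 6.27, 6.22 and 5.94 in saline, 6.35, 5.19 and 6.29 in iCM and 6.52, 7.14 and 7.95 in iCM-Ex. All iCM-Ex arrays lay above both other groups, with a difference of 1.06 ± 0.42 from saline (limma adjusted p = 0.27). Its neighbour H2bc1, the gene of a testis H2B, had 3.80, 3.70 and 4.24 in saline, 4.66, 4.31 and 4.22 in iCM and 5.45, 4.00 and 5.35 in iCM-Ex, with overlapping groups.

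The linker genes H1f6 and H1f7 are known from sperm cells and H1f8 from the egg, and all 3 had group means below the negative control mean in every group. H1f6 had 3.77, 3.54 and 3.43 in saline, 3.24, 3.81 and 4.04 in iCM and 3.81, 4.03 and 4.45 in iCM-Ex. H1f7 had 4.91, 5.02 and 4.61 in saline, 4.17, 4.95 and 4.50 in iCM and 4.67, 4.37 and 4.28 in iCM-Ex. H1f8 had 3.64, 3.54 and 3.25 in saline, 3.51, 3.72 and 3.26 in iCM and 3.51, 3.66 and 3.61 in iCM-Ex. Their differences, of at most 0.52 in size, have no interpretable scale. The mean of 10 other testis germ cell genes was 4.37 to 4.78 on all arrays, and 0 of them were called by limma. At an unadjusted p below 0.05, 2, 0 and 0 were higher and 0, 1 and 2 lower in the 3 comparisons.

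In the order of RefSeq genes the replication-dependent members form 3 blocks, from H2bc13 to H2bc11 (20 genes) and from H4c8 to H1f1 (23 genes) on chromosome 13 and from H2ac21 to H2bc18 (8 genes) on chromosome 3. Their median differences between iCM-Ex and saline were 1.23, 1.65 and 1.94, and those between iCM and saline 0.24, 0.34 and 0.64. Canonical histone genes of a family are close to identical in their coding sequence, so a probe may read more than 1 gene, and the values of single members are uncertain to that degree.

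Genes that act with histones were counted beside them. Of 28 genes of S phase and mitosis, the limma test called 1 higher in iCM than in saline, against 1.34% of all genes. This was Ccne2, a cyclin of S phase entry, which rose by 1.67 ± 0.36 (adjusted p = 0.0352). Its saline signals of 3.79, 4.39 and 3.45 lay below the negative control mean of 5.29, so the size of the rise is uncertain. The test called 0 in the other contrasts. At an unadjusted p below 0.05, 4 were higher in each, against 8.33% and 8.39% of all genes. The lower counts were 1 in iCM-Ex minus saline and 0 in iCM-Ex minus iCM, against 6.91% and 6.09%. In iCM-Ex minus saline the smallest p were those of Pcna, the sliding clamp of DNA replication, and Rrm2, a subunit of ribonucleotide reductase. Pcna had 1.39 ± 0.44 (0.18) and Rrm2 1.19 ± 0.35 (0.158). In iCM-Ex minus iCM it was that of Ube2c, a mitotic ubiquitin-conjugating enzyme, at 1.89 ± 0.47 (0.0907). The iCM signals of Ube2c, 3.22 to 3.59, lay below the negative control mean of 5.31. The list's medians were −0.12, 0.33 and 0.27 for iCM against saline, iCM-Ex against saline and iCM-Ex against iCM. Its mean signal was 5.23, 5.69 and 5.78 in saline, 5.76, 5.64 and 5.24 in iCM and 5.77, 6.05 and 5.92 in iCM-Ex, and saline overlapped both treated groups.

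Of 12 genes for the transcription and 3′ end processing of histone mRNA, 1 fell in iCM by limma, against 2.33% of all genes. This was the cap-binding subunit Ncbp1, by 1.78 on the log2 scale (limma adjusted p = 0.0437). Its iCM signals, 4.65 to 4.95, lay below the negative control mean of 5.31, so the size of the fall is uncertain. At an unadjusted p below 0.05, 4 of the 12 were lower in iCM than in saline and 0 higher, against 9.97% and 10.5% of all genes. The list's medians were −0.54, −0.25 and −0.03 in the same order, and limma called 0 genes in iCM-Ex minus saline (1 lower at an unadjusted p below 0.05) and 0 in iCM-Ex minus iCM (2 higher and 1 lower). Cpsf3, the nuclease that cuts the pre-mRNA, had −1.22 ± 0.31 in iCM-Ex minus saline (0.112). Npat, the activator of histone gene transcription, had −0.92 in iCM and −0.80 in iCM-Ex. Of 23 histone chaperones, Ep400, a remodeller that deposits H2A.Z, fell by 1.40 in iCM (0.0291), and Ubn1, a subunit of the complex that deposits the H3 replacement variant, fell by 1.37 in iCM-Ex against iCM (0.0444). Of all genes, 2.33% and 0.272% were called lower in these comparisons. In iCM against saline, 8 of the 23 chaperones were higher and 2 lower at an unadjusted p below 0.05, against 10.5% and 9.97% of all genes. Among the higher were Set at 1.53 (0.0922), Hira at 1.16 (0.0713) and Ubn1 at 0.98 (0.0701), named after their values were seen. In iCM-Ex minus saline 4 were higher and 1 lower, against 8.33% and 6.91% of all genes. In iCM-Ex minus iCM 1 was higher and 3 lower, against 8.39% and 6.09%. The chaperone medians were 0.40, 0.21 and 0.08. Of 14 histone variants with other names, such as H2ax, the macroH2A genes and Cenpa, 0 were called by limma. At an unadjusted p below 0.05, 1, 2 and 1 were higher and 1, 0 and 0 lower, in the same order of comparisons. H2aj, a replacement H2A, had 1.38 ± 0.36 in iCM-Ex minus saline (0.119). H2ab1 had 1.17 ± 0.29 in iCM minus saline (0.0529), but its saline signals, 4.87 to 5.05, lay below the negative control mean of 5.29. The list's medians were −0.11, 0.14 and 0.22.

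Other measures were set beside the histone classes on the arrays. The mean of 9 macrophage and monocyte genes was 8.24, 9.83 and 11.58 in saline, 9.80, 9.93 and 8.45 in iCM and 10.94, 11.67 and 11.31 in iCM-Ex, and 9 of 9 were higher in iCM-Ex than in saline. Limma called 0 of them, with 2 at an unadjusted p below 0.05. Like the replication-dependent class, this list was lowest in saline replicate 1 and high in iCM-Ex replicates 2 and 3, but saline replicate 3 was as high as these. The difference between positive and negative control signals, a measure of array quality called control separation, was 3.26, 3.48 and 3.56 in saline, 3.21, 2.47 and 3.15 in iCM and 3.63, 4.01 and 3.67 in iCM-Ex, so every iCM-Ex array exceeded all others. With it as a covariate the class medians between iCM-Ex and iCM were 0.31 for replication-dependent (from 1.04) and 0.28 for replacement histones (from 0.31), and those between iCM-Ex and saline 1.10 (from 1.41) and 0.99 (from 1.24). The part of macrophage content in the histone differences was not tested.

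Among the other lists, 9 of 9 fibroblast genes were lower in iCM than in saline and 8 of 9 higher in iCM-Ex, with means of 13.24 to 14.95, 12.02 to 14.37 and 14.36 to 15.05 in saline, iCM and iCM-Ex. Lung genes averaged 11.93 on the first iCM array, 6.25 on the second and 8.88 on the third iCM-Ex array, against 4.60 to 5.30 elsewhere, and the second iCM array also had means of 13.33 for fast muscle and 10.15 for fat genes. Without these 3 arrays, where every iCM value is that of replicate 3 alone, the replication-dependent medians were 0.19, 1.13 and 0.87 and those of the replacement histones 0.38, 1.01 and 0.53, for iCM against saline, iCM-Ex against saline and iCM-Ex against iCM. The mean of 9 neutrophil genes lay between 4.38 and 5.12 in saline, between 5.36 and 6.27 in iCM and between 5.49 and 6.09 in iCM-Ex. S100a9 rose by 3.20 in iCM (limma adjusted p = 0.0352). Its saline signals of 3.82, 5.27 and 5.84 lay around the negative control mean of 5.29, so the size of the rise is uncertain. In lymphocyte, erythroid, endothelial and fat lists (8, 5, 9 and 9 genes), 0, 0, 1 (Esam) and 1 (Fabp4) were called higher in iCM and 0 elsewhere. Of all genes, 1.34% were called higher in iCM.

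**Figure D4:**
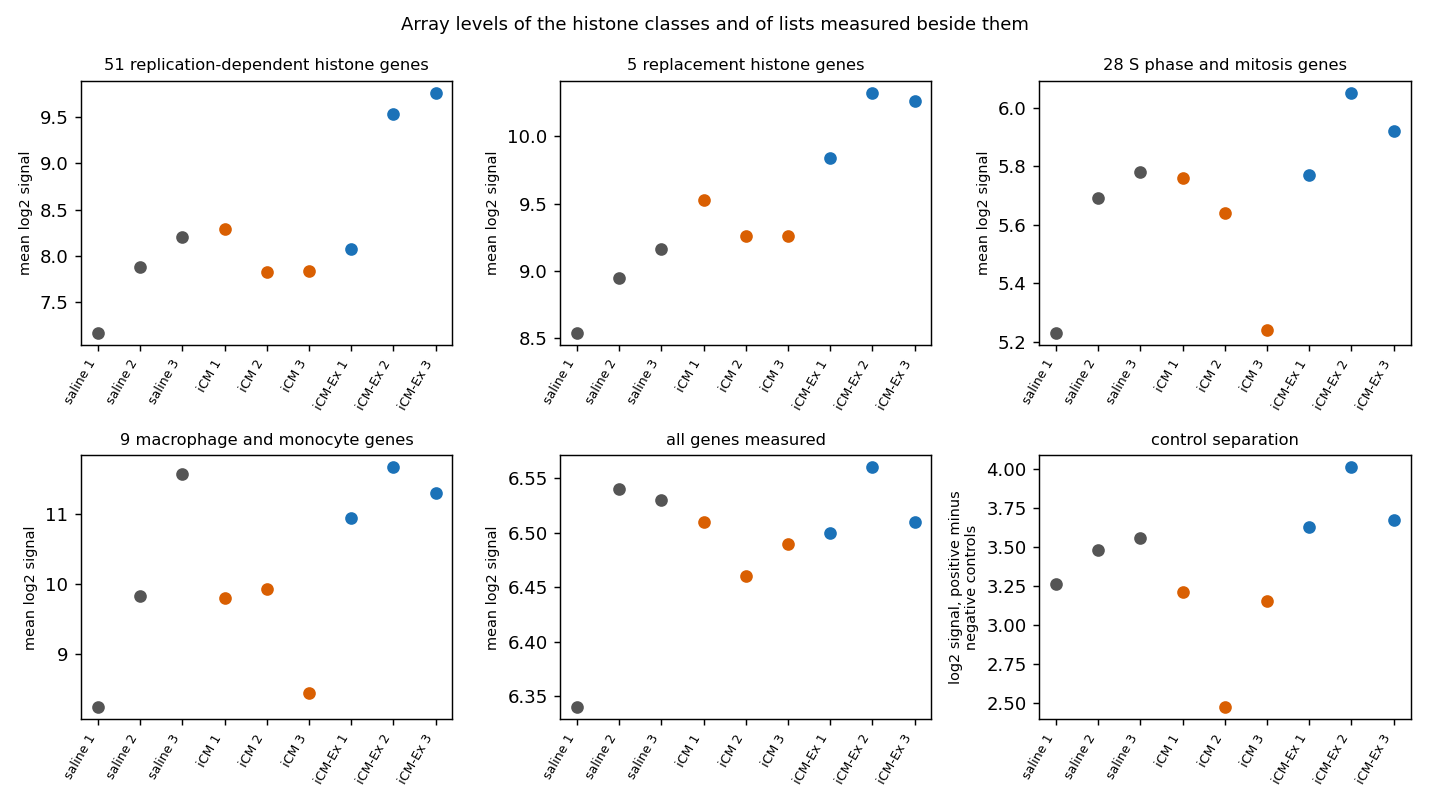
Mean log2 signal on each array (horizontal axis, coloured by group) for the replication-dependent and replacement histones, S phase and mitosis genes, macrophage and monocyte genes and all genes measured, with control separation in the last panel; vertical axes do not start at 0 and differ between panels. Saline replicate 1 is lowest in 5 of the 6 panels, and the iCM-Ex arrays have the highest control separation.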

How the data were processed

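RNA of the heart border zone from 9 mice was labelled as cDNA on Clariom S arrays. The authors deposited 1 log2 signal per probe set and array, computed in Affymetrix Expression Console according to the submitters' processing notes. For its version, background correction, normalisation and genome build, nothing is given in the sources used here. That the scale is log2 was inferred from the range of the values. Of 28846 rows, 6640 were controls and 19572 had a gene symbol. The brightest row was kept for the 55 genes with several, which left 19505 genes, with no further normalisation or filter.

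All arrays entered 1 limma fit (version 3.58.1, R 4.3.3) with 3 group means (prior degrees of freedom 4.23, residual 6). Three-array groups limit precision, and an exact permutation test of 3 against 3 arrays cannot go below p = 0.1. Two-sided p-values, and those of the F test, were adjusted over all genes after Benjamini and Hochberg (Benjamini-Hochberg), with a threshold of 0.05. The ± beside a difference is limma's standard error. Bracketed values after a first limma adjusted p are further limma adjusted p-values. The fit was tested on simulated data.

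The members and lists were chosen with earlier results of these data known. Array values are given for members past the threshold, the brightest pair of each replication-dependent family, replacement and germline members, and the 4 largest rises and falls per comparison. Of the lists of genes that act with histones, up to 4 genes past the threshold are named, or else those with the smallest p. Classes follow symbols. Alternatives were quantile normalisation, a filter on dim genes, mean of rows, rows without symbols, the replicate number as a block, fits of the compared groups alone, a variance trend, control separation as a covariate, and arrays left out. Promoters came from RefSeq.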

Additional observations from a re-analysis of the deposited data

How the results depend on the processing

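With 3 arrays a group and 4 members near the negative controls in every group, calls of single genes were limited. The replication-dependent and replacement medians stayed above 0 under every alternative run, but not at one size. With control separation as a covariate the replication-dependent median of iCM-Ex minus iCM went from 1.04 to 0.31 and the replacement median of iCM minus saline from 0.35 to 0.92. Calls by limma changed with the setting. The F test, which called 3 members as reported, called 6 after quantile normalisation, 5 among genes above the median signal, 1 with the replicate block, 1 with the variance trend, 1 with control separation as a covariate and 0 without the 3 arrays that carried lung, muscle or fat markers. That last fit holds 1 iCM array and 2 iCM-Ex arrays, and its F test called 0 of all genes, so it says nothing about stability. The counts for iCM minus saline, 2 as reported, were 4 after quantile normalisation, 1 with the replicate block, 1 with the trend, 0 with the covariate, 0 without the 3 arrays and 1 in the fit of those 2 groups alone. For iCM-Ex minus saline, 1 as reported, the count was 0 with the replicate block, the covariate and in the fit of those 2 groups alone. Of all genes, 0, 5 and 1 were called in these settings. For iCM-Ex minus iCM, 0 as reported, it was 1 among genes above the median signal. With 1 array left out, the counts were 1 to 20 for the F test and 1 to 3 for iCM minus saline. They were 0 to 7 for iCM-Ex minus saline and 0 to 15 for iCM-Ex minus iCM. Over all genes the counts were 43 to 723, 126 to 803, 0 to 163 and 0 to 401 in that order. Without saline replicate 1 and iCM-Ex replicate 1 together, an alternative added after seeing the data, the histone counts were 21, 1, 0 and 24. Over all genes they were 667, 491, 0 and 583. Both arrays were low in these same histone genes, so these counts follow from that choice and are a description only. Fewer arrays enter the leave-out fits, and the cause of the other changes was not tested. Counting H3c14 and H3c15 once, also added after seeing the data, changed none of the 4 counts.

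Same-numbered arrays correlated at −0.26 to 0.07 in their deviations from the group means, with 0 of 9 pairs over 0.1. The labels give them a shared number only, and a shared preparation was not tested. With the replicate block, H2ac6 had a limma adjusted p of 0.02 in iCM and 0.073 in iCM-Ex, and H3f3a 0.0626 in iCM. Single-gene differences were recomputed only for the members named by the rule and not for the rest, and 4 uncalled ones changed sign. H1f2 in iCM-Ex minus saline was −0.34 to 0.20 with 1 array left out (0.00, 0.09 and 0.20 without saline replicate 2, saline replicate 3 or iCM-Ex replicate 1). In iCM-Ex minus iCM, H1f7 was 0.54 with the covariate, 0.02 without the 3 arrays and −0.29 to 0.10 with 1 array left out. H2az2 was −0.45 to 0.30 with 1 array left out, and 0.14 without saline replicate 1 and iCM-Ex replicate 1 together. H2bc21 was 0.02 with the covariate and −0.35 to 0.15 with 1 array left out.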
